A study of Mus musculus with 2 samples.

Results

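The genes described here are 10 regulators and targets of the ERK pathway, out of 33696 genes in the deposited count matrices. They are the ETS-family transcription factors Etv1, Etv4 and Etv5, the Sprouty-related inhibitors Spred1 and Spred2, the Sprouty inhibitors Spry2 and Spry4, and the dual-specificity phosphatases Dusp4, Dusp5 and Dusp6. They were chosen by symbol, from an earlier analysis of these same counts in which several of them differed between the libraries in cortical glutamatergic neurons. The differences in those neurons are therefore given as a description of how the genes were selected, without a test. The unit is the unique molecular identifier (UMI), a tag that counts each captured RNA molecule once, and a level is given in CPM, that is the UMIs of the gene divided by all UMIs of the cell class, times 1e+06.

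Growth factor receptors activate RAS, which drives the kinases RAF, MEK and ERK in turn, and ERK enters the nucleus and changes transcription. Etv1, Etv4 and Etv5 form the PEA3 subfamily of ETS factors and lie downstream of this cascade, while the Spred, Sprouty and Dusp proteins act back on it as inhibitors and are themselves induced by ERK signalling in many tissues. Etv1 is also known in the cortex as a marker of layer 5 neurons, and in the olfactory system as a factor of newly made interneurons.

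The material came from mice labelled Shank3-/-, which carry the loss of a postsynaptic scaffold protein. No animals with an intact gene were analysed here. Mice of 1 library drank vehicle (labelled MOCK), and those of the other drank fluconazole, an azole used against fungi, over 2 weeks. The design text names the prefrontal cortex and the labels the whole brain, and the number, age, sex and strain of the mice behind each library are not given in the sources used here. Cells and nuclei combined are named in the design, nuclei alone in the extraction protocol, so each droplet is called a barcode. With 1 library per treatment there is no replicate check and no test: intervals are exact 95% intervals that cover counting error only, and the library and the treatment cannot be told apart.

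The vehicle library held 14924 barcodes and 76891692 UMIs, and the fluconazole library 12637 barcodes and 78380009 UMIs. After filtering, 12869 and 10572 barcodes remained, with a median of 4326 and 5244 UMIs. Of the barcode sequences, 45 occurred in both libraries, 31 of them among those kept. Clustering without the 10 genes gave 35 clusters, of which 8 stayed unnamed, and 12 cell classes had at least 50 barcodes in each library. The tissue held classes that cortex alone would not supply: striatal spiny neurons made up 2.70% of kept vehicle barcodes and 1.95% of kept fluconazole barcodes, and neuroblasts 4.06% and 2.29%. Glutamatergic neurons numbered 2068 and 1714 barcodes, with a median of 7471 UMIs in the vehicle library and 10464 in the fluconazole library. In those neurons Shank3 itself was read at 71.1 CPM and 79.2 CPM. A 3′ tag outside the deleted part checks nothing about the deletion, and which part was deleted is not given in the sources used here.

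The promoters of the genes that stood furthest apart between the libraries are printed here to show what the letters around their start sites share. They were taken from RefSeq on the GRCm38.p6 (mm10) build, from 250 bases before to 50 bases after the start site, and 7 of the 10 genes matched, with 9 start sites. Capitals mark CG dinucleotides, the sites of DNA methylation. The first start site of Etv5 lies on the minus strand at chr16:22439521-22439820, that of Spred1 on the plus strand at chr2:117120821-117121120, that of Spred2 on the plus strand at chr11:19924192-19924491 and the first of Etv1 on the plus strand at chr12:38779832-38780131.
Etv5, first start site: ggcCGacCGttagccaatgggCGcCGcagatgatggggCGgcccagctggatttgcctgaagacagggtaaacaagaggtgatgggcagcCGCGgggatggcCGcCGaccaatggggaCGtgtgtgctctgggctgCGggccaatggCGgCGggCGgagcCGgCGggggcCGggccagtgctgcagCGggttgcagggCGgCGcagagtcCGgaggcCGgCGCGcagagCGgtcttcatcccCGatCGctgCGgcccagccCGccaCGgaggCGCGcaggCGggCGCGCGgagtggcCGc
Spred1: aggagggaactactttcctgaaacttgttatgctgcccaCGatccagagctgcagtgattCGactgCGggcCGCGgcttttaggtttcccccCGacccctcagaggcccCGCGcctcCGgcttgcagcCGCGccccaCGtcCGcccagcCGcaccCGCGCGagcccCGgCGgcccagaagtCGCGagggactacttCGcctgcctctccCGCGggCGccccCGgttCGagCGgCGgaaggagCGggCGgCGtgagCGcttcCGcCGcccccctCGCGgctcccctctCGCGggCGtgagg
Spred2: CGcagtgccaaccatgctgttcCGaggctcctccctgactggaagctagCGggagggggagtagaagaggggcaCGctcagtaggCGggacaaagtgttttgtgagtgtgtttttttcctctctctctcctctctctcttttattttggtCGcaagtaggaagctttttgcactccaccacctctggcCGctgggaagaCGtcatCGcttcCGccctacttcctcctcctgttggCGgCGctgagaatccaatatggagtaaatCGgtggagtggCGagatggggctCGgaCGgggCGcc
Etv1, first start site: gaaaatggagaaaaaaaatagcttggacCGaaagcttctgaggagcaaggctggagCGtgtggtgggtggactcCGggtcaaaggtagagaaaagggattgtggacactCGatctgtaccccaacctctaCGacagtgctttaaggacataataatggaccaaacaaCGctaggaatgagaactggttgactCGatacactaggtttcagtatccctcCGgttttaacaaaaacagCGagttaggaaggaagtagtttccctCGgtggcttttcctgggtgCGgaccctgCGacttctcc

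The Etv5 promoter shown held 37 CG dinucleotides and that of Spred1 40, against a median of 7 over 32817 promoters of the same length, of which 94.4% and 96.1% held fewer. Spred2 held 17 and the first Etv1 start site 12. The second start site of Etv1, which is not printed, held 3 and that of Etv5 held 19. Both strands were searched for the ETS core CCGGAA, the AP-1 motif TGANTCA, the CRE motif TGACGTCA and the CArG box bound by serum response factor. None of these exact letters was found in the 4 sequences above. The shorter letters GGAA within the ETS core were not counted, and they do occur in the printed Spred1, Spred2 and Etv1 sequences. No motif contains another. Among the 9 start sites of the genes described, the ETS core in the form CCGGAA occurred in 1, that of Spry2. This form is held by 14.9% of all promoters. A CArG box occurred in 1, that of Dusp5, and is held by 1.63% of all promoters. The AP-1 motif is held by 7.81% and the CRE motif by 1.79% of all promoters. A match of letters is a description and says nothing of binding.

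The class with the highest level differed among the 10 genes, though several genes shared the same one. In the vehicle library Etv1 was highest in neuroblasts and oligodendrocytes, Etv4 in astrocytes, Etv5 in oligodendrocyte precursors and astrocytes, Spred1 in border macrophages, Spred2 in neuroblasts, Spry2 in astrocytes, Spry4 in mural cells, Dusp4 in neuroblasts, Dusp5 in microglia, and Dusp6 in microglia and border macrophages. The clusters were made without these genes, so their levels did not shape the classes.

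**Figure D1:**
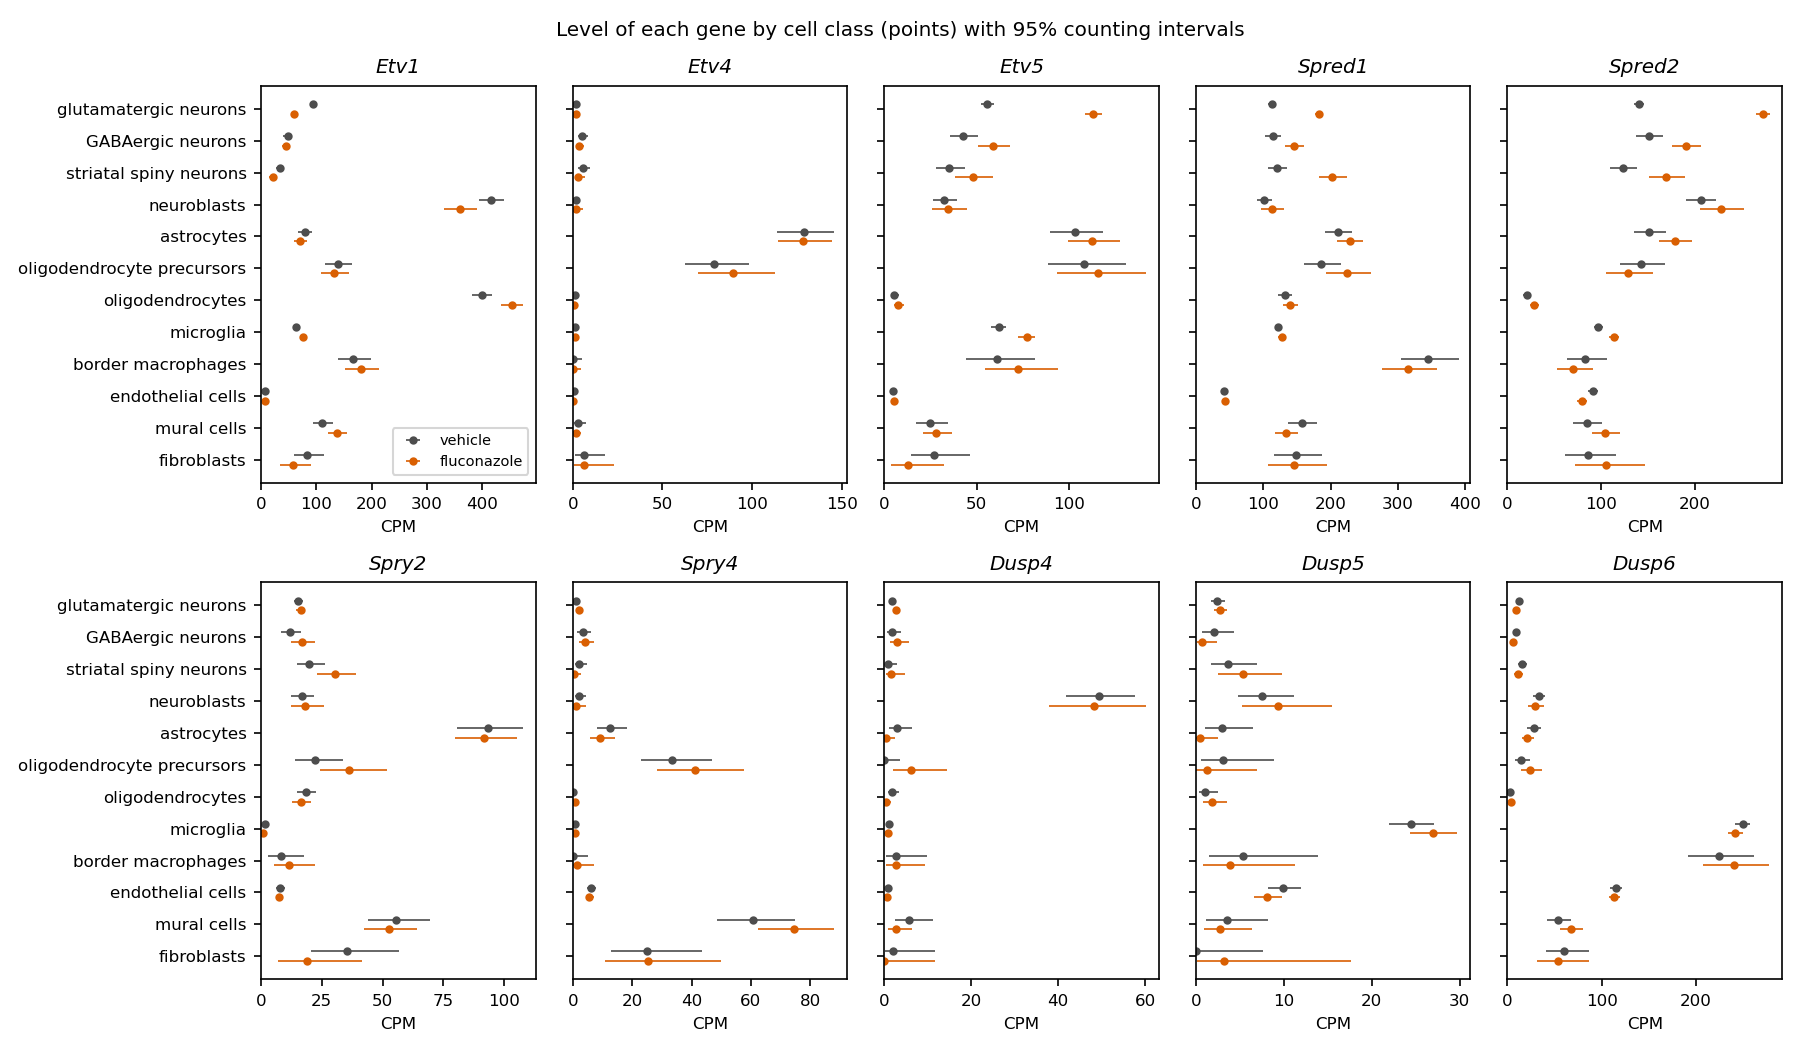
Level of each of the 10 genes in 12 cell classes. The x axis is CPM on a linear scale that differs between panels, grey points are the vehicle library, orange points the fluconazole library, and bars are 95% counting intervals. Etv4 stood at 129 CPM in astrocytes and Dusp4 at 49.3 CPM in neuroblasts in the vehicle library, with most other classes near 0, whereas Spred1 and Spred2 were read in every class.

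Etv1 stood at 416 CPM in vehicle neuroblasts (interval 394 to 439) and 399 CPM in vehicle oligodendrocytes (381 to 418), and these intervals overlapped. In the fluconazole library the order was turned, with oligodendrocytes at 453 CPM (434 to 474) above neuroblasts at 360 CPM (331 to 391), and these did not overlap. Border macrophages followed at 166 and 181 CPM, then oligodendrocyte precursors at 139 and 132 CPM and mural cells at 111 and 138 CPM. Endothelial cells were lowest, at 7.55 and 6.31 CPM, close to the 7.34 and 5.53 CPM that free RNA alone would give there. That estimate scales the profile of the whole library by a share read from the microglial genes C1qa, C1qb and C1qc. Within oligodendrocytes the cluster led by Klk6, Hapln2 and Ermn stood at 549 CPM and the larger cluster led by Opalin, Mal and Qdpr at 336 CPM in the vehicle library, with 614 and 399 CPM in the fluconazole library.

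Etv4 was limited to 2 related classes at a level above 10 CPM. Astrocytes stood at 129 CPM in both libraries (114 to 146 in the vehicle library), and oligodendrocyte precursors at 78.9 CPM (62.3 to 98.5) and 89.6 CPM, and the intervals of the classes did not overlap. With barcodes thinned to 1500 UMIs the vehicle order was turned, at 147 CPM in precursors and 135 CPM in astrocytes. The classes below these stood under 7 CPM in both libraries. In border macrophages no UMI was seen in either library, which allows up to 4.06 and 3.88 CPM. Etv5 had a wider range: in the vehicle library precursors stood at 108 CPM (88.7 to 131), astrocytes at 103 CPM (89.8 to 118), microglia at 61.9 CPM, border macrophages at 60.8 CPM and glutamatergic neurons at 55.6 CPM. The first 2 overlapped, as did the next 3 in turn. In the fluconazole library glutamatergic neurons, at 113 CPM (109 to 118), overlapped precursors at 116 CPM and astrocytes at 113 CPM. Mature oligodendrocytes held 5.45 and 7.44 CPM of Etv5, far below their precursors, where free RNA alone would give 2.56 and 3.93 CPM.

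Spred1, whose product blocks the activation of RAF, was read in all 12 classes. Border macrophages stood at 345 CPM (304 to 390) in the vehicle library and 315 CPM (277 to 357) in the fluconazole library, above astrocytes at 211 and 228 CPM without overlap. Endothelial cells were lowest, at 42.2 and 43.3 CPM. Spred2, its close relative, was highest in vehicle neuroblasts at 206 CPM (191 to 223), ahead of GABAergic neurons at 151 CPM, astrocytes at 151 CPM, oligodendrocyte precursors at 143 CPM and glutamatergic neurons at 140 CPM, whose intervals overlapped in turn. In the fluconazole library glutamatergic neurons led at 272 CPM (265 to 280), above neuroblasts at 228 CPM (205 to 253) without overlap. Oligodendrocytes were lowest, at 20.5 and 28.6 CPM, while they held Spred1 at 132 and 140 CPM.

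Of the Sprouty genes, which block signalling from receptor tyrosine kinases, Spry2 was highest in astrocytes and Spry4 in mural cells. Spry2 stood at 93.4 CPM (80.5 to 108) in vehicle astrocytes and 91.8 CPM in fluconazole astrocytes, above mural cells at 55.7 and 52.5 CPM without overlap. Microglia were lowest, at 1.78 and 0.941 CPM. Of the mural clusters, that led by Abcc9, Kcnj8 and Vtn, which are pericyte genes, held Spry2 at 83.5 CPM and that led by Tagln, Acta2 and Myh11, which are smooth muscle genes, at 24.1 CPM in the vehicle library, with 72.4 and 28.8 CPM in the fluconazole library. Spry4 was highest in mural cells at 60.6 CPM (48.5 to 74.9) and 74.4 CPM, ahead of oligodendrocyte precursors at 33.4 and 41.1 CPM. In the glutamatergic neurons Spry4 was read at 1.27 and 1.99 CPM, from 23 and 40 UMIs.

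Of the phosphatases, Dusp4 was highest in neuroblasts, and Dusp5 and Dusp6 were both highest in microglia. Dusp4, a nuclear phosphatase of ERK and related kinases, was read in neuroblasts at 49.3 CPM (41.9 to 57.6) and 48.1 CPM (38.0 to 60.1), and in no other class above 7 CPM. Dusp5, a nuclear phosphatase of ERK, was highest in microglia at 24.4 and 27.0 CPM, above endothelial cells at 9.95 and 8.09 CPM and neuroblasts at 7.53 and 9.38 CPM, whose intervals overlapped. The microglial cluster led by Il1a, Ccl4 and Ccl3, which encode cytokines and chemokines, held Dusp5 at 31.8 and 35.5 CPM, and that with Tmem119 and Ptpro among its leading genes at 19.4 and 19.7 CPM. Dusp6, the cytoplasmic phosphatase of ERK, had the reverse order over the same clusters, at 205 and 190 CPM in the first and 280 and 285 CPM in the second. In the class as a whole Dusp6 stood at 250 and 242 CPM, overlapping border macrophages at 224 and 240 CPM, and above endothelial cells at 115 and 113 CPM. Endothelial clusters spread from 90.2 CPM in that led by Gkn3, Bmx and Sema3g to 180 CPM in that led by Hmcn1, Cxcl12 and Adgrl4 in the vehicle library, and from 76.0 to 177 CPM in the fluconazole library. Glutamatergic neurons held Dusp6 at 11.9 and 9.06 CPM, where free RNA alone would give 10.5 and 8.70 CPM. Such a level cannot be told apart from free RNA here. In GABAergic neurons the same estimate, 13.8 and 7.67 CPM, exceeded the 8.71 and 5.69 CPM read. How much of either level is free RNA was not tested.

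Glutamatergic neurons had more Etv5, Spred1 and Spred2 in the fluconazole library, and less Etv1. These are among the values for which the genes were chosen. Etv5 was read 1004 times at 55.6 CPM in the vehicle library and 2272 times at 113 CPM in the fluconazole library (log2 ratio 1.02, interval 0.92 to 1.13). Spred2 went from 140 to 272 CPM, a log2 ratio of 0.96 (0.89 to 1.03), and Spred1 from 113 to 183 CPM, 0.70 (0.62 to 0.78). Etv1 went the other way, from 93.7 to 59.5 CPM, -0.66 (-0.76 to -0.55). The intervals of the levels of these 4 genes did not overlap between the libraries.

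The other 6 genes gave little. Spry2 stood at 15.3 and 16.2 CPM, a log2 ratio of 0.08 (-0.15 to 0.32). Dusp6 gave -0.39 (-0.68 to -0.10), from the level close to its free-RNA estimate given above. Etv4, Spry4, Dusp4 and Dusp5 had fewer than 100 UMIs over both libraries, and the interval of each ratio took in 0, so that a difference was not detectable at this depth. Of all 10, 7 had the higher CPM with fluconazole. A gene was called past the fold where its absolute log2 ratio was at least 0.5, it had at least 100 UMIs over both libraries and its interval left out 0. Of the 6 genes with enough UMIs, 3 were past it upward, where 2.07% of 13904 genes were, and 1 downward, where 3.83% were. The choice of the genes used this contrast, so nothing is read from these counts. Among the 13904 genes ordered by ratio, Etv5 was the 27th from the top, Spred2 the 37th and Spred1 the 106th, and Etv1 the 218th from the bottom.

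The share of barcodes with a UMI moved with the level when depth was made equal. With each glutamatergic barcode thinned to 5000 UMIs, 1572 vehicle and 1443 fluconazole barcodes were left, and 496 and 271 shallower ones were not used. Etv5 was seen in 21.9% of them (19.9 to 24.1) in the vehicle library and 38.5% (35.9 to 41.0) in the fluconazole library, and without thinning in 30.6% and 53.4%. Spred2 was seen in 44.7% and 70.6% of thinned barcodes and in 57.8% and 82.8% without thinning. Barcodes with at least 3 UMIs of Spred2 made up 5.15% and 18.2%. Spred1 was seen in 42.7% and 58.2% after thinning (54.2% and 75.2% before), and Etv1 in 24.4% and 16.1% (30.3% and 28.4% before). For comparison, in a class with little Etv5, at a level above that of free RNA, it was seen in 4.33% and 6.59% of unthinned oligodendrocytes, which had a median of 7295 and 8905 UMIs. The shares were spread over many barcodes: the barcode richest in each of the 4 genes held at most 1.42% of its UMIs in either library.

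Other measures differed between the same neurons. Ribosomal protein genes made up 0.539% of glutamatergic UMIs in the vehicle library and 0.411% in the fluconazole library, and 76 of 77 measured had the lower CPM in the latter (median log2 ratio -0.38). The 7 nuclear-retained RNAs, such as Malat1 and Meg3, made up 5.05% and 5.66%. The 8 microglial markers summed to 604 and 491 CPM and the 8 oligodendrocyte markers to 327 and 266 CPM, while the 8 astrocyte markers, of a class that also holds Etv5, Spred1 and Spred2, summed to 537 and 603 CPM. None of these markers was at 0. Endothelial, neuroblast and GABAergic markers also summed lower in the fluconazole library. The part of RNA quality, depth and RNA from other cells in the ratios of Etv5, Spred1, Spred2 and Etv1 was not tested. A rough subtraction of free RNA kept the direction of all 4.

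The glutamatergic neurons were divided again to follow the 4 genes by layer. Of 15 sub-clusters, 8 had at least 50 barcodes in each library, and 4 of these took a layer name from their markers. Those are layer 2/3 intratelencephalic (IT) neurons, layer 5 extratelencephalic (ET) neurons, which project to the brainstem and spinal cord, and layer 6 IT and layer 6 corticothalamic (CT) neurons. The layer 5 ET sub-cluster also carries markers of layer 5 IT neurons, with a mean log2 fold over the other sub-clusters of 1.02 against 1.35 for its own, where markers that did not pass count as 0. The other 4 keep the names of their leading genes. The sub-cluster led by St18, Prr5l and Anln carries oligodendrocyte genes beside the neuronal ones, and that led by Cmss1, Slc24a3 and mt-Co2 had a median of only 1250 and 1184 UMIs.

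**Figure D2:**
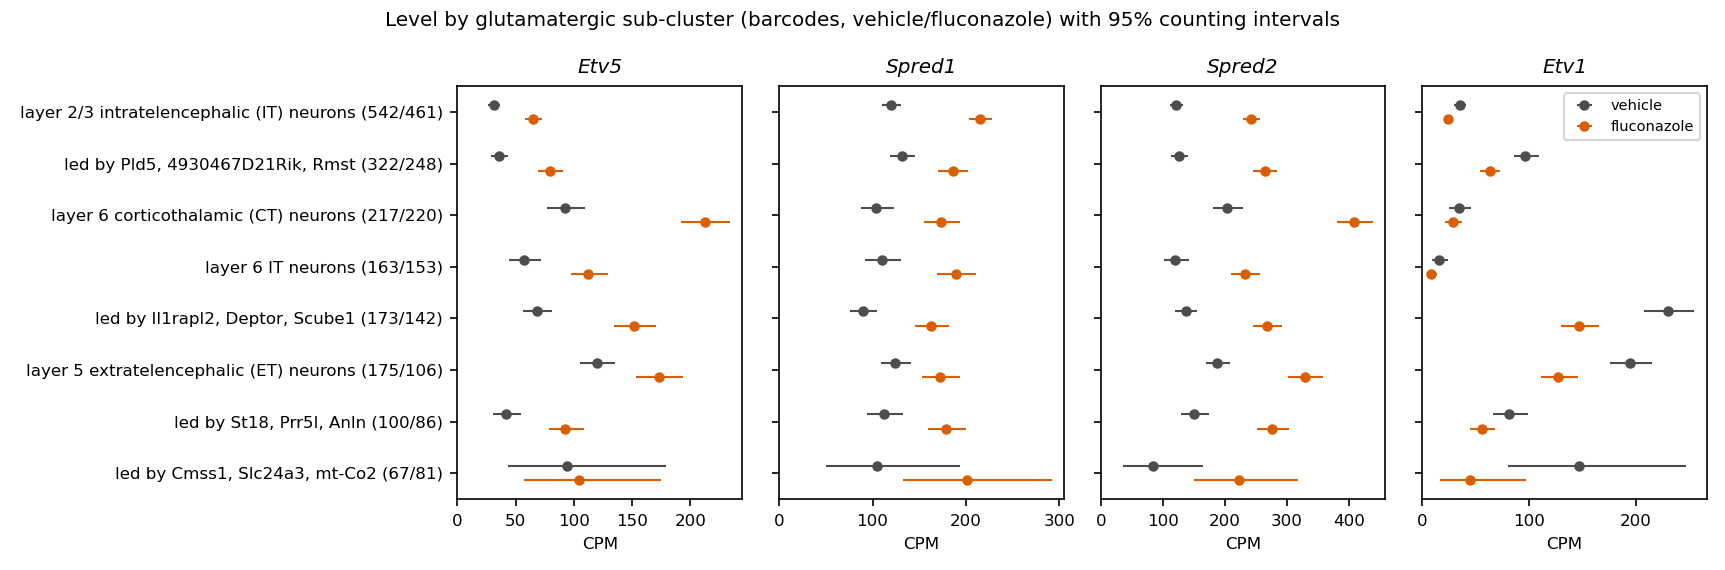
Level of Etv5, Spred1, Spred2 and Etv1 in the 8 glutamatergic sub-clusters with at least 50 barcodes in each library. The x axis is CPM, grey points are the vehicle library, orange points the fluconazole library, and bars are 95% counting intervals. Etv1 in the vehicle library ranged from 15.7 CPM in layer 6 IT neurons to 230 CPM in the sub-cluster led by Il1rapl2, Deptor and Scube1.

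Etv1 had the steepest gradient over layers. In the vehicle library the sub-cluster led by Il1rapl2, Deptor and Scube1 stood at 230 CPM and layer 5 ET neurons at 195 CPM. The sub-cluster led by Pld5, 4930467D21Rik and Rmst, which also carries the layer 4 gene Rorb, stood at 96.5 CPM, and layer 2/3 IT, layer 6 CT and layer 6 IT neurons at 35.4, 33.9 and 15.7 CPM. Layer 5/6 near-projecting neurons, with 62 and 44 barcodes too few for the comparison between libraries, held the most, at 475 and 362 CPM. Among the 4 layers compared between libraries, Etv5 was highest in deep layers: layer 5 ET neurons stood at 120 CPM and layer 6 CT neurons at 92.2 CPM in the vehicle library, against 31.2 CPM in layer 2/3 IT neurons. In the fluconazole library layer 6 CT neurons were first of these at 212 CPM, then layer 5 ET neurons at 173 CPM. A small sub-cluster outside that comparison, led by Or5v1b, C130073E24Rik and Gm45321, held as much Etv5, at 122 and 213 CPM. Its Spred1 stood at 122 and 106 CPM, from 33 and 82 UMIs, with overlapping intervals. Every other sub-cluster had the higher Spred1 CPM in the fluconazole library. Of the same 4 layers Spred2 was highest in layer 6 CT neurons, at 204 and 409 CPM, and layer 5 ET neurons, at 188 and 329 CPM, while near-projecting neurons stood at 238 and 282 CPM. Spred1 spread little, from 89.8 to 131 CPM in the vehicle library.

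**Figure D3:**
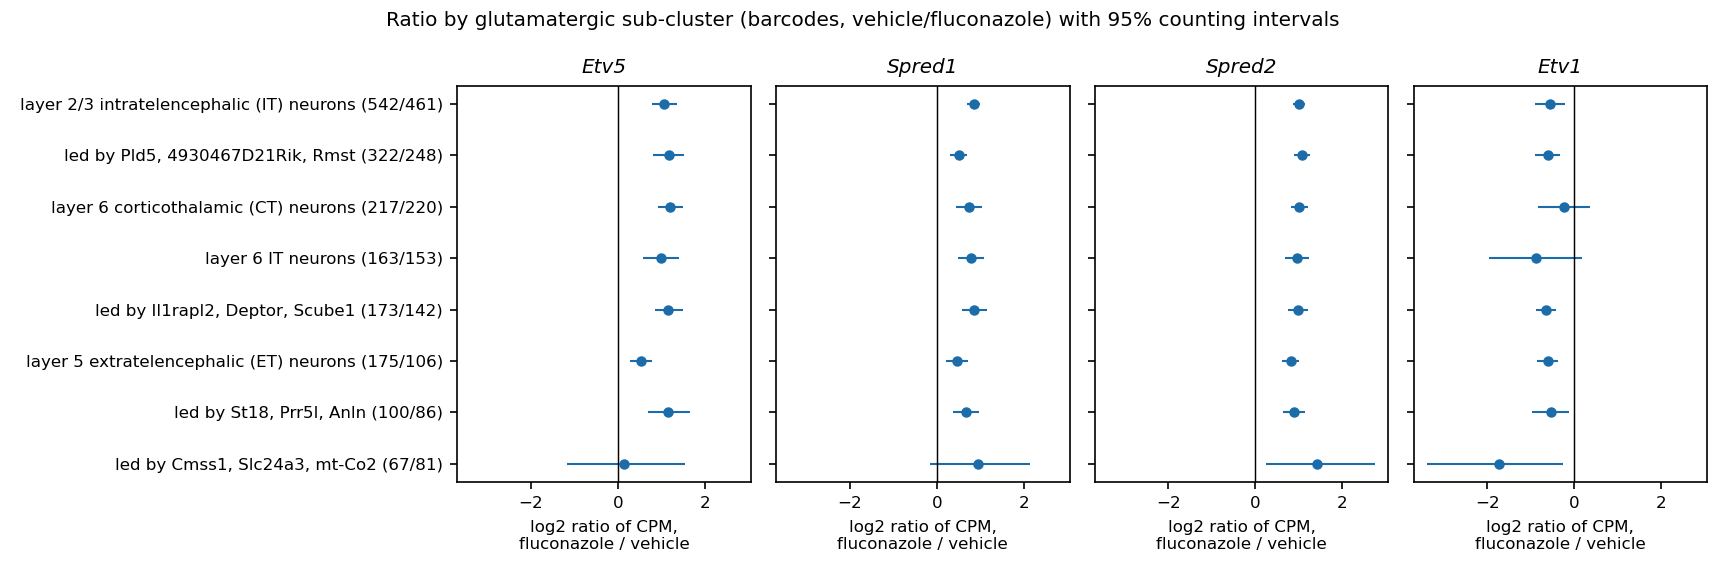
Log2 ratio of CPM, fluconazole over vehicle, for Etv5, Spred1, Spred2 and Etv1 in the 8 glutamatergic sub-clusters, with barcode numbers in parentheses. Points are ratios and bars 95% counting intervals. All points lie right of 0 for Etv5, Spred1 and Spred2 and left of 0 for Etv1, and bars are widest for the shallow sub-cluster led by Cmss1, Slc24a3 and mt-Co2.

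Spred2 was higher in the fluconazole library in all 8 sub-clusters, with log2 ratios from 0.81 in layer 5 ET neurons to 1.06 in the sub-cluster led by Pld5, and 1.41 from 8 and 30 UMIs in the shallow one led by Cmss1, and each interval left out 0. Etv5 was higher in 7 of 8 by the same measure. Its ratio was 1.20 (0.91 to 1.50) in layer 6 CT neurons, 1.06 (0.77 to 1.35) in layer 2/3 IT neurons and 0.98 (0.58 to 1.40) in layer 6 IT neurons. In layer 5 ET neurons, where its vehicle level was highest, the ratio was 0.53 (0.28 to 0.79), and this interval did not overlap those of layer 6 CT and the sub-clusters led by Pld5 and by Il1rapl2. That difference between layers was not tested over replicates. Spred1 was higher in 7 of 8, from 0.47 in layer 5 ET neurons and 0.50 in the sub-cluster led by Pld5 to 0.85 in layer 2/3 IT neurons and 0.86 in that led by Il1rapl2. Etv1 was lower in 6 of 8, with -0.65 (-0.87 to -0.42) in the sub-cluster led by Il1rapl2, -0.61 (-0.86 to -0.37) in layer 5 ET neurons and -0.55 (-0.89 to -0.20) in layer 2/3 IT neurons. In layer 6 CT neurons it was -0.24 (-0.83 to 0.36) from 46 and 54 UMIs, and in layer 6 IT neurons it rested on 19 and 15 UMIs. The sub-cluster led by Cmss1, Slc24a3 and mt-Co2 gave the exceptions for Etv5 and Spred1, from 9 and 14 UMIs of Etv5 and 10 and 27 of Spred1. Its value for Etv1 rested on only 14 and 6 UMIs.

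In the small near-projecting group the intervals of Etv5 at 0.27 (-0.52 to 1.07) and Spred2 at 0.25 (-0.23 to 0.73) took in 0, while Etv1 stood at -0.39 (-0.77 to -0.02). A sub-cluster led by Ndst4, Abi3bp and Adamts6 held 97 vehicle and 19 fluconazole barcodes. There Etv1 went from 19.9 to 61.4 CPM, opposite to the near-projecting group and the 8 sub-clusters compared. It rested on 18 and 15 UMIs, with 40% of the latter in 1 barcode. Etv1 was also higher with fluconazole in the small sub-clusters led by Or5v1b (22.2 and 24.6 CPM) and by Slc7a11 (49.8 and 108 CPM). The last rested on 6 and 11 UMIs, with 81.8% of the latter in 1 barcode. Etv1 was lower in the small sub-clusters led by Cxcl12, by Cd74 and by Arhgap6.

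The count of genes past the fold was set beside its background in each sub-cluster. In layer 2/3 IT neurons 4 of the 5 genes with enough UMIs were past it, where 6.9% of all genes were in either direction. In the sub-cluster led by Pld5 4 of 4 were, against 7.25%, and in that led by Il1rapl2 4 of 4, against 7.32%. In layer 6 CT neurons 3 of 4 were, against 7.58%, and in layer 6 IT neurons 3 of 3, against 8.52%. In layer 5 ET neurons 3 of 4 were, against 8.54%, and in the sub-cluster led by St18 4 of 4, against 8.21%. All of these are parts of the neurons on which the genes were selected.

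Outside the glutamatergic neurons the ratios differed in sign between classes. Those of Etv5 and Spred2 with at least 100 UMIs were smaller than in the glutamatergic neurons, while those of Spred1, Spry2 and Etv1 in striatal spiny neurons were as far from 0 or further. They come from other barcodes of the same 2 libraries, and no class has a replicate. Among classes with at least 100 UMIs of the gene, intervals that left out 0 were found for Spry2 in striatal spiny neurons. They were also found for Dusp6 in glutamatergic neurons, at a level close to its free-RNA estimate, and otherwise for the Spred genes, Etv1 and Etv5.

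**Figure D4:**
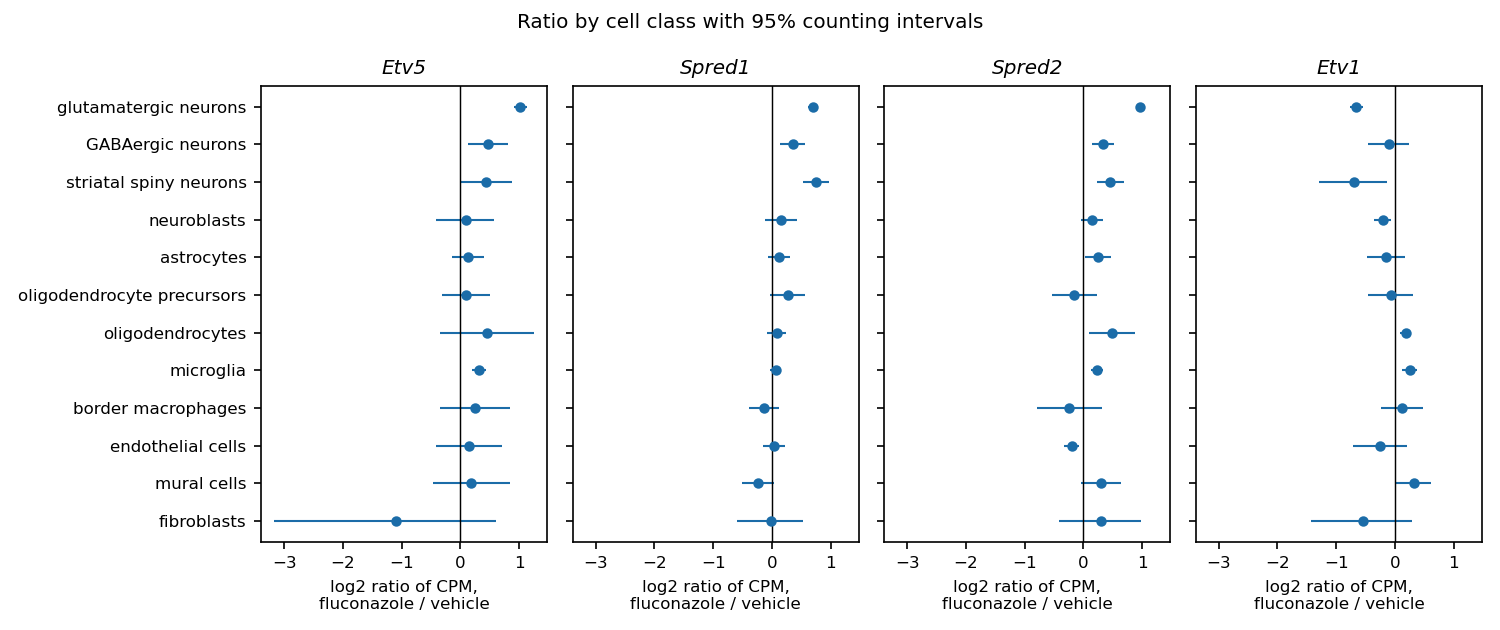
Log2 ratio of CPM, fluconazole over vehicle, for Etv5, Spred1, Spred2 and Etv1 in 12 cell classes. Points are ratios and bars 95% counting intervals. Glutamatergic neurons lie furthest right for Etv5 at 1.02 and Spred2 at 0.96. The whole bar of Etv1 lies right of 0 in microglia, mural cells and oligodendrocytes. It lies left of 0 in glutamatergic neurons, striatal spiny neurons and neuroblasts, and crosses 0 in the other classes.

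Among inhibitory neurons, GABAergic neurons, with 448 and 361 barcodes, held Etv5 at 42.5 and 58.9 CPM, a log2 ratio of 0.47 (0.13 to 0.81). Spred1 stood there at 114 and 146 CPM, 0.35 (0.15 to 0.56), and Spred2 at 151 and 190 CPM, 0.33 (0.15 to 0.52). Etv1 stood at 47.9 and 44.5 CPM, and its interval took in 0 (-0.46 to 0.24). The cluster led by Adarb2, Reln and Pde11a, genes of interneurons from the caudal eminence, gave 1.06 for Etv5 from 29.3 and 61.2 CPM. That led by 6330411D24Rik, Kcnc2 and Kcnmb2 gave 0.23 from 49.1 and 57.7 CPM. Together these clusters held the 127 and 176 Etv5 UMIs of the whole class. Each cluster ratio therefore rests on fewer UMIs, and its interval is not given here.

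Striatal spiny neurons, with 347 and 206 barcodes, held Spred1 at 121 and 202 CPM, a log2 ratio of 0.74 (0.52 to 0.97), and Spred2 at 123 and 169 CPM, 0.46 (0.23 to 0.69). Spry2 stood at 19.9 and 30.3 CPM, 0.61 (0.03 to 1.19), from 49 and 57 UMIs. Etv1 stood at 33.6 and 20.7 CPM, -0.70 (-1.29 to -0.13), from 83 and 39 UMIs. Of the 5 genes with enough UMIs 3 were past the fold, where 11.7% of genes were. Microglial markers in these barcodes summed to 807 and 571 CPM, astrocyte markers to 1218 and 1510 CPM and oligodendrocyte markers to 330 and 460 CPM. Their part in the ratios was not tested.

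Microglia, with 3163 and 2413 barcodes, held Etv5 at 61.9 and 77.0 CPM, a log2 ratio of 0.32 (0.19 to 0.44), Etv1 at 63.5 and 75.7 CPM, 0.25 (0.13 to 0.38), and Spred2 at 96.8 and 114 CPM, 0.23 (0.13 to 0.33). Both microglial clusters had the higher value of each in the fluconazole library. Dusp6, the most abundant of its group there, gave -0.05 (-0.11 to 0.02) and Spred1 gave 0.06 (-0.03 to 0.16). In oligodendrocytes Etv1 stood at 399 and 453 CPM, 0.18 (0.09 to 0.28), and Spred2 at 20.5 and 28.6 CPM, 0.48 (0.09 to 0.88). In neuroblasts Etv1 stood at 416 and 360 CPM, -0.21 (-0.35 to -0.07). In mural cells Etv1 stood at 111 and 138 CPM, 0.32 (0.02 to 0.61). Astrocytes gave 0.24 (0.03 to 0.46) for Spred2, and endothelial cells -0.20 (-0.33 to -0.07), from 91.3 and 79.5 CPM. In astrocytes Etv4 gave -0.01 (-0.25 to 0.24) and Spry2 -0.02 (-0.32 to 0.27), in the class where both are highest. Over the 12 classes, the interval lay above 0 in 6 classes and below it in 1 for Spred2, above it in 3 for Etv5 and for Spred1, and above it in 3 and below it in 3 for Etv1.

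Lists chosen by function for the cascade core, other feedback inhibitors and other ETS factors had medians near that of all genes in glutamatergic neurons. Over 18415 genes with at least 20 UMIs the median log2 ratio was -0.04, and 42.9% had the higher CPM in the fluconazole library. The 20 core genes of the cascade split into 10 higher and 10 lower, with a median of -0.01 and none past the fold. The 20 measured feedback inhibitors outside the 10 genes split into 9 and 11, with a median of -0.02 and none past the fold. Of 15 other ETS factors 5 were higher, with a median of -0.09. Ets1, a founding member of the ETS family, was past the fold at -0.51.

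Of 14 receptor tyrosine kinases with at least 100 UMIs 3 were past the fold downward, where 3.83% of all genes were. Of 19 such ligands 1 was, and no gene of either list was past it upward. Of the 17 receptors measured with at least 20 UMIs 7 were higher, with a median of -0.04. Erbb4, a neuregulin receptor and also one of the GABAergic markers, stood at 117 and 67.5 CPM, a log2 ratio of -0.79 (-0.89 to -0.70). Egfr, the epidermal growth factor receptor, gave -0.81 (-1.30 to -0.33) and Met, the hepatocyte growth factor receptor, -0.59 (-1.09 to -0.10), each from fewer than 100 UMIs a library. The summed GABAergic markers in these barcodes stood at 133 and 76.1 CPM. Igf1r, which the series title names and which was singled out for that after its value was seen, stood at 236 and 259 CPM, 0.14 (0.08 to 0.19). Of 20 ligands 11 were higher, with a median of 0.03, and Hbegf, a ligand of Egfr, was past the fold at -0.81 (-1.35 to -0.27).

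Most of the transcripts used elsewhere as readouts of ERK activity had the lower CPM in the fluconazole library. Of 18 with enough UMIs 1 was past it upward, where 2.07% of genes were, and 3 downward, where 3.83% were. Of 20 measured, 5 had the higher CPM with fluconazole and 15 the lower, with a median of -0.17. Arc, an immediate early gene of synapses, was past the fold upward at 0.87 (0.52 to 1.22), from 5.82 to 10.6 CPM. Past it downward were Ier2 at -0.52 (-0.63 to -0.41), Egr2 at -0.80 (-1.27 to -0.33), both immediate early genes, and Hbegf, which stands in both lists. The list's shift lies beside the ribosomal median of -0.38 given above, and how far either moves with the other was not tested.

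**Figure D5:**
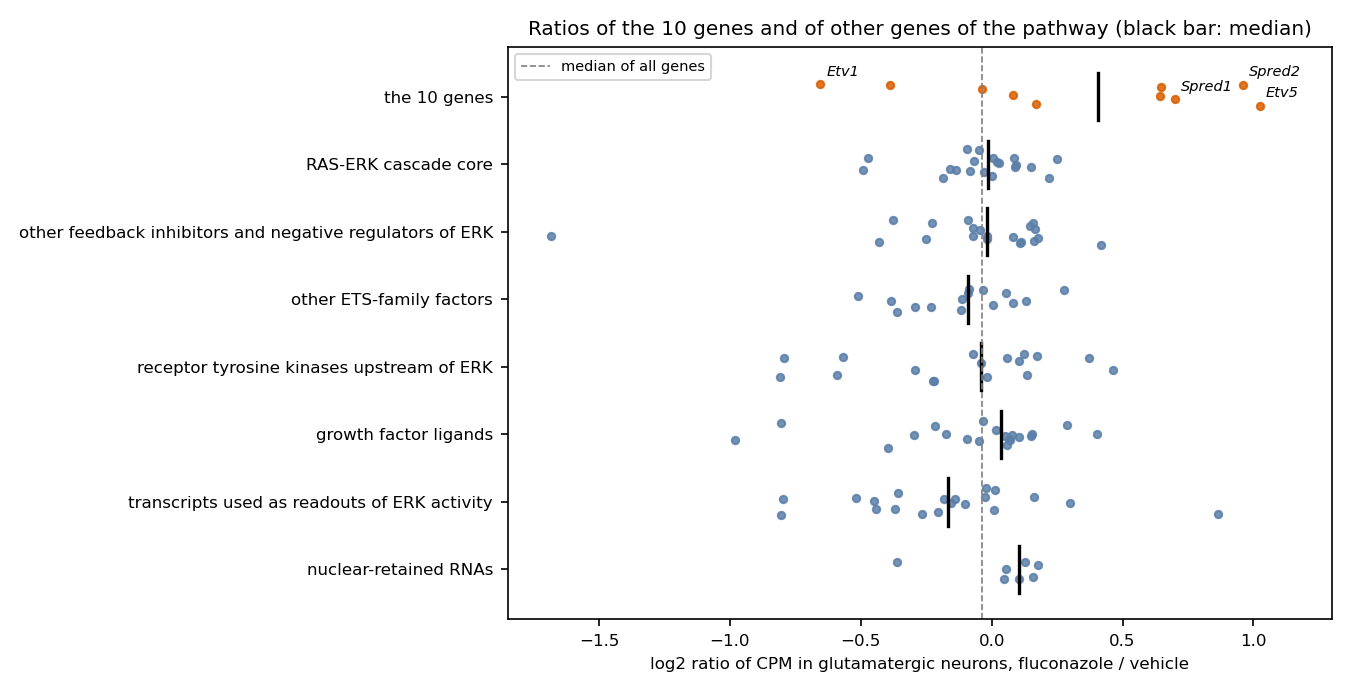
Log2 ratio of CPM in glutamatergic neurons, fluconazole over vehicle, for the 10 genes (orange) and for the measured genes of 7 lists (blue). Each point is 1 gene, black bars are medians of a row, and the dashed line is the median of all genes at -0.04. The cascade core centres at -0.01 and the ERK readouts at -0.17, while Etv5, Spred2 and Spred1 stand at 1.02, 0.96 and 0.70 and Etv1 at -0.66.

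The genes whose pattern over the cell types was most like each of the 10 were found by Pearson correlation of log2(CPM + 10) over 28 clusters, among 14053 genes. All points share the same 2 libraries, so the values are a description. Etv4 was closest to Car8 (0.99) and Bcan (0.97), Dusp6 to Klf6 (0.96) and Sdcbp (0.96), and Dusp4 to Mex3a (0.95), Dlx2 (0.94) and Dlx5 (0.93), genes that are high in neuroblasts. Spry4 was closest to Cspg4 (0.89), a gene of precursors and pericytes. Etv5 was closest to Frmd4a (0.89) and Kcnip3 (0.89), Dusp5 to Tbpl1 (0.89) and Bbc3 (0.88), Spred2 to Trio (0.85), Spred1 to Taok3 (0.84), Spry2 to Gm32618 (0.81) and Etv1 to Ten1 (0.78), the lowest of the leading values.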

How the data were processed

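Gene expression was measured in 2 droplet libraries of 10x Genomics 3′ chemistry. The values the authors deposited are raw counts of UMIs for each gene in each barcode, in whole numbers, for barcodes already called as cells. Cell Ranger 8.0.1 made the matrices, per the file headers. The submitters' processing notes list mm10 as the genome, R 4.0.3, Seurat 4.0.0 and Cell Ranger 9.0.0. The annotation, the counting of introns and the use of strand are not given in the sources used here, so reads of overlapping genes cannot be told apart.

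Kept barcodes had 500 or more genes and no more than 5% mitochondrial UMIs. Scrublet (scanpy 1.11.5, expected rate 8%) marked 4.30% and 4.44% of barcodes as doublets, which were left out. Both libraries were clustered together, without the 10 genes (2000 variable genes, 30 components, 15 neighbours, Leiden resolution 1, leidenalg 0.10.2), with no batch correction. A cluster took a class name where 3 or more markers of the class were 2-fold above other clusters and seen in 10% of its barcodes, unless another class scored too near. Related classes did not count as another (neuroblasts and GABAergic neurons, or layer 5 ET and layer 5 IT neurons). The names are rebuilt here and may differ from the study's. Glutamatergic barcodes were clustered again at resolution 0.6, which was chosen with the clusters in view. UMIs were summed per class and library. Levels have exact Poisson intervals, ratios exact conditional binomial intervals and shares exact Clopper-Pearson intervals, all at 95% and for counting error only. A count of 0 allows up to 3 counts. The calculations were tested on simulated data.

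The 10 genes and the gene lists were chosen with earlier results of these data known. All 10 are named. Of the lists, genes past the fold (absolute log2 ratio at least 0.5, at least 100 UMIs, interval without 0) are named, at most 5 per list, and for each of the 10 up to 3 most similar genes were found, among genes with at least 500 UMIs. Alternatives were the scaling, doublets kept, stricter filters, thinning, subtraction of free RNA, a coarser clustering, equal weights for clusters and leaving out the richest barcode.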

Additional observations from a re-analysis of the deposited data

Results flagged for a closer look

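Etv1 and Spred2 had counting intervals on opposite sides of 0 in different cell classes, which singles them out for a second look. With 1 library per treatment the difference between classes was not tested. The log2 ratio of Etv1, fluconazole over vehicle, was 0.25 in microglia, 0.32 in mural cells and 0.18 in oligodendrocytes, against -0.66 in glutamatergic neurons, -0.70 in striatal spiny neurons and -0.21 in neuroblasts. Those are the classes whose interval left out 0. In the others the interval of Etv1 took in 0. There the ratio was -0.55 in fibroblasts, -0.26 in endothelial cells, -0.15 in astrocytes and -0.07 in oligodendrocyte precursors. It was -0.11 in GABAergic neurons and 0.12 in border macrophages. The classes with an interval below 0 were neurons or neuroblasts, and those with an interval above 0 were neither. Several other classes that are not neurons had a ratio below 0 with an interval that took in 0. Whether the direction separates neurons from other cells was not tested. The log2 ratio of Spred2 was 0.96 in glutamatergic neurons, 0.48 in oligodendrocytes, 0.46 in striatal spiny neurons, 0.33 in GABAergic neurons, 0.24 in astrocytes and 0.23 in microglia, against -0.20 in endothelial cells.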

How the results depend on the processing

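Of 658 values of the 10 genes recomputed under an alternative, 607 moved by less than their counting error, 51 moved by more and 0 changed sign as a called value. In glutamatergic neurons, equal weight for each cluster gave log2 ratios of -0.78 for Etv1, 0.84 for Etv5, 0.57 for Spred1 and 0.87 for Spred2. Equal weight for each sub-cluster gave 0.88 for Etv5, the named layer classes alone gave -0.81 for Etv1 and 0.87 for Etv5, and thinning to 5000 UMIs gave 1.07 for Spred2. These last 3 alternatives were chosen after seeing the data. Over all 11 alternatives the ranges were -0.81 to -0.56 for Etv1, 0.84 to 1.11 for Etv5, 0.57 to 0.77 for Spred1 and 0.87 to 1.07 for Spred2. Dusp6 there went from -0.39 to -1.91 when free RNA was subtracted. The cause of these shifts was not tested. Another scaling shifted the ratios of that class by -0.04. No paired analysis was possible because each treatment has 1 library. Depth limits genes with fewer than 100 UMIs over both libraries of a class, which were not counted as past the fold.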
